A study of Homo sapiens with 6 samples.

Results

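The 10 genes described here encode the core of the NRF2 antioxidant defence: the transcription factor NRF2 (gene NFE2L2) and its inhibitor KEAP1, the glutathione genes GCLC, GCLM and GPX4, the thioredoxin genes TXN, TXNRD1 and SRXN1, and the classical NRF2 targets NQO1 and HMOX1. They were chosen by symbol, with earlier results of these data known, and 10 of 10 were found among the 30741 genes of the expression table. After 48 h in 20 nM TSN, 0 of the 10 passed the limma test against DMSO, beside 14.9% of all tested genes. At an unadjusted limma p under 0.05 the count was 3 of 10, near the 30.8% of all tested genes. HMOX1 came closest and lay higher in every TSN library, whereas GCLC, GCLM and SRXN1 lay lower in every TSN library. That is 4 of 10 genes without overlap between groups, near the 39.2% of all tested genes. Among genes of the surrounding lists, the cystine carrier SLC7A11 fell, and the small MAF gene MAFF and the heme synthesis gene ALAS1 rose.

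The study used MOLM-13 cells, a human acute myeloid leukaemia line whose genotype is given as WT. The groups were cells given 20 nM TSN for 48 h (3 libraries) and cells given the solvent DMSO for 48 h (3 libraries), described as biological replicates. TSN is taken as toosendanin, the plant triterpenoid of the series title. Groups come from the sample titles, since DMSO is entered as the treatment of all 6 samples. The table names no column DMSO, and its 3 columns without TSN in their names were taken as DMSO, the only other group.

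NRF2 is made continuously and is normally held by KEAP1, which passes it to a CUL3 ubiquitin ligase for destruction. Oxidants and electrophiles modify cysteines of KEAP1, NRF2 then accumulates, pairs with a small MAF protein and binds antioxidant response elements near its target genes. Because that switch acts on the protein, the RNA of NFE2L2 itself need not move when the pathway is on, and RNA of target genes is the usual readout. The targets make and recycle glutathione and thioredoxin, the main thiol reductants of the cell, or remove quinones and heme.

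The core of the antioxidant response element, TGACNNNGC, was searched on both strands in RefSeq promoter windows of 300 bases (GRCh38.p14, 250 bases before to 50 after each start). The search covered the 9 members matched by symbol, and HMOX1 was not among them. A match stood in 4 of their 14 windows (28.6%), which belong to GCLM, TXNRD1 and KEAP1, and in 13.3% of all 35116 windows. Those matches are shown because the core is part of the element that NRF2 is known to bind, and use of these matches by NRF2 was not tested. Beside them stand the matches of MAFF, ME1 and PGD, genes of the NRF2 lists that passed the test, shown because they hold a match. Over the genes of all 9 surrounding lists, 26 of 145 windows (17.9%) held one. The windows of the called genes TXNIP, GGT7, ALAS1, BLVRA, TFRC, DHODH, CHAC1 and SEPHS1 held none, as did the other windows of the members. Letters outside the windows were not searched, and the called gene SLC7A11, like HMOX1, was not matched by symbol. Matches not printed here stood in windows of MGST1 and SECISBP2, called genes of other lists, and of PARK7, which was not called. A further match of ME1, 12 to 20 bases after its start, lies outside the stretch printed. Capitals mark each match in a printed stretch, read 5′ to 3′ on the gene's strand.
GCLM, chr1:93909431-93909489, minus strand: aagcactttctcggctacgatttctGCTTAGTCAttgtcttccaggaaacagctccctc
TXNRD1, first start, chr12:104215655-104215788, plus strand: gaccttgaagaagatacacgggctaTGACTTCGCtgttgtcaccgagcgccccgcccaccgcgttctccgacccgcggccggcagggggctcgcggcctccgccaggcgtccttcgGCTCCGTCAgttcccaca
TXNRD1, second start, chr12:104286905-104286963, plus strand: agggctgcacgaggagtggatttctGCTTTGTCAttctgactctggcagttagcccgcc
KEAP1, chr19:10502769-10502850, minus strand: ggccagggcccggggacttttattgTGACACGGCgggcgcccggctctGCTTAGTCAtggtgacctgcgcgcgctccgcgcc
MAFF, chr22:38201847-38201905, plus strand: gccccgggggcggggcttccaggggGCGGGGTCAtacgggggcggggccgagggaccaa
ME1, chr6:83431155-83431213, minus strand: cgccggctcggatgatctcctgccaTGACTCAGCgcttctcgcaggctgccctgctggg
PGD, chr1:10398838-10398896, plus strand: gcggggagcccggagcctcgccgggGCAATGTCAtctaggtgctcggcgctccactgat
GCLM and KEAP1 carry the same 9 letters, GCTTAGTCA, at 34 and 31 bases before their starts. A match describes letters in a window and is not a measured binding site.

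Values are in FPKM, which divides fragment numbers by exon length and library total to allow comparison between genes. That comparison is rough here, because trends with exon length differed between libraries, as given below. Estimated depth ran from 37155600 to 50417000 fragments per library, where 1 fragment on 1 kb of exon was worth 0.0198 to 0.0269 FPKM. Of 10 markers of myeloid cells, 8 averaged at least 1 FPKM, and their summed level was 2203 to 2285 FPKM in TSN and 3593 to 3866 in DMSO. Erythroid markers summed to under 1 FPKM in every library. Of 5 lymphoid markers in the table, 3 averaged at least 1 FPKM, with sums of 7.84 to 15.9 FPKM in TSN and 7.29 to 8.76 in DMSO. EPCAM was the only epithelial or fibroblast marker to average at least 1 FPKM, and that list summed to 3.62 to 4.03 FPKM in TSN and 3.22 to 3.87 in DMSO. The part of these differences in the results below was not tested. In bulk RNA, fewer cells of a type and less RNA per cell cannot be told apart.

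The number 3 libraries stood apart, in opposite directions. TSN 3 had the lowest median of the 11440 genes tested, 2.97 as log2(FPKM + 1), while the others had medians of 3.30 to 3.46. Relative to the mean of all 6 libraries, the 3747 genes with the longest exons had a median of -0.45 (log2) in TSN 3 and 0.24 in DMSO 3, and the 3749 with the shortest exons had a median of 0.11 in TSN 3 and -0.12 in DMSO 3. A trend with GC content was present too. The 3748 genes of lowest GC had a median of -0.47 in TSN 3 and 0.25 in DMSO 3. For the 3747 genes of highest GC it was 0.17 in TSN 3 and -0.16 in DMSO 3. In TSN 2 the median was 0.22 for the longest and -0.12 for the shortest exons, and 0.15 for the lowest GC. Each fold change of a member is therefore given with and without the number 3 libraries. The fit without them keeps TSN 2, so it is not free of these trends.

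Tests were run with limma on log2(FPKM + 1) over the 11440 genes that reached 1 FPKM in 3 or more libraries, and fold changes are on that scale. All 10 members reached that filter. SRXN1 did so through its DMSO libraries alone, where it is high, so its place in the counts of lower genes below is no independent support. At a limma adjusted p under 0.05, 0 members were called higher and 0 lower, beside 14.9% of all tested genes (7.71% higher and 7.2% lower). At an unadjusted p under 0.05 the count was 3 of 10 (HMOX1 higher, GCLM and SRXN1 lower), beside 30.8% of all tested genes. The groups did not overlap for 4 of 10 members, 1 higher and 3 lower, beside 39.2% of all tested genes (16.2% higher and 22.9% lower). The median log2 fold change of the members was -0.21, and that of all tested genes -0.10.

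**Figure D1:**
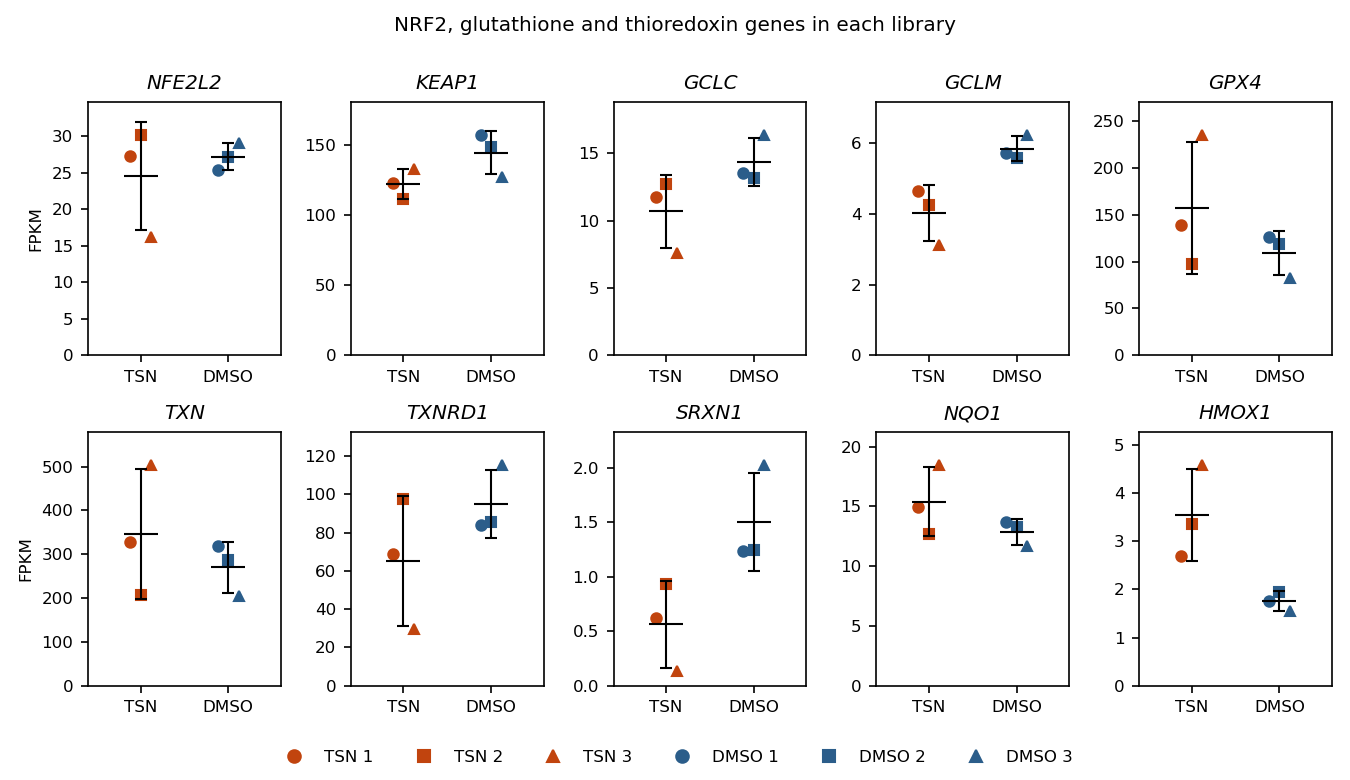
FPKM (linear axes from 0) of each of the 10 genes in the 3 TSN and 3 DMSO libraries, with a marker shape for each replicate number, a bar at the mean and whiskers of 1 SD. HMOX1 is higher in all 3 TSN libraries, GCLC, GCLM and SRXN1 are lower in all 3, and the triangles of the number 3 libraries lie at opposite ends in 8 of the 10 genes.

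The sensor pair showed no called change. NFE2L2 (ENSG00000116044, chromosome 2, 177227595 to 177392697) had 27.3, 30.2 and 16.2 FPKM in TSN 1, 2 and 3, against 25.4, 27.1 and 29.1 FPKM in DMSO 1, 2 and 3. The groups overlapped, with TSN 2 the highest and TSN 3 the lowest of all 6. Its log2 fold change was -0.19 ± 0.24 SE (95% interval -0.77 to 0.39, limma adjusted p = 0.641), and it was 0.13 without TSN 3 and DMSO 3. KEAP1 (ENSG00000079999, chromosome 19, 10486120 to 10503741) had 122.6, 111.2 and 133 FPKM in TSN 1, 2 and 3, against 157, 148 and 127.5 FPKM in DMSO 1, 2 and 3. TSN 3 lay above DMSO 3, so the groups overlapped, although TSN 1 and 2 lay below every DMSO library. The log2 fold change of KEAP1 was -0.24 ± 0.15 SE (95% interval -0.59 to 0.12, limma adjusted p = 0.325) and -0.38 without the number 3 libraries (limma adjusted p = 0.0612). After correction for exon length and GC content within each library, a setting chosen after seeing the data, KEAP1 passed as lower (-0.39, limma adjusted p = 0.0182). KEAP1 RNA was several times more abundant than NFE2L2 RNA in every library, with NFE2L2 at 0.223, 0.272 and 0.122 of the KEAP1 level in TSN 1, 2 and 3 and at 0.161, 0.183 and 0.229 in DMSO 1, 2 and 3. Exons of NFE2L2 share 20.9% of their bases with AGPS and other genes, partly on the other strand, and the sources used here do not say whether counting used strand.

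Both subunits of glutamate-cysteine ligase, the enzyme that sets the rate of glutathione synthesis, lay lower in TSN without passing the test. GCLC, the catalytic subunit (ENSG00000001084, chromosome 6, 53497341 to 53616970), had 11.8, 12.7 and 7.61 FPKM in TSN 1, 2 and 3, against 13.5, 13.2 and 16.4 FPKM in DMSO 1, 2 and 3. GCLM, the modifier subunit (ENSG00000023909, chromosome 1, 93885205 to 93909456), had 4.66, 4.27 and 3.13 FPKM in TSN 1, 2 and 3, against 5.74, 5.58 and 6.25 FPKM in DMSO 1, 2 and 3. The groups did not overlap for either subunit, but the gap for GCLC was narrow, between TSN 2 and DMSO 2. The log2 fold change was -0.42 ± 0.22 SE for GCLC (95% interval -0.93 to 0.10, limma adjusted p = 0.248). It was -0.46 ± 0.17 SE for GCLM (95% interval -0.86 to -0.06, limma adjusted p = 0.119). Without the number 3 libraries these values were -0.12 and -0.29. The ratio of GCLC to GCLM ranged from 2.43 to 2.97 in TSN and from 2.35 to 2.62 in DMSO. These ranges overlapped, and a difference in the ratio was not tested.

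GPX4, the selenium-containing peroxidase that uses glutathione to reduce lipid peroxides (ENSG00000167468, chromosome 19, 1103926 to 1106791), was measured with a wide spread. It had 139, 97.8 and 235 FPKM in TSN 1, 2 and 3, against 126, 118 and 81.9 FPKM in DMSO 1, 2 and 3. TSN 3 was the highest and DMSO 3 the lowest library, while TSN 2 lay below DMSO 1 and 2. Its log2 fold change of 0.46 ± 0.34 SE (95% interval -0.37 to 1.29, limma adjusted p = 0.414) became -0.07 without the number 3 libraries.

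The thioredoxin pair deviated in opposite directions within the number 3 libraries and was not called. TXN, the small thiol reductant (ENSG00000136810, chromosome 9, 110243811 to 110256640), had 328, 207 and 504 FPKM in TSN 1, 2 and 3, against 318, 288 and 205 FPKM in DMSO 1, 2 and 3. TXNRD1, the cytosolic selenoenzyme that recharges TXN with NADPH (ENSG00000198431, chromosome 12, 104215779 to 104350305), had 68.7, 97.4 and 29.5 FPKM in TSN 1, 2 and 3, against 84.2, 85.3 and 115 FPKM in DMSO 1, 2 and 3. In TSN 3 TXN was at its highest and TXNRD1 at its lowest, in DMSO 3 the reverse, and the groups overlapped for both genes. The log2 fold change of TXN was 0.29 ± 0.35 SE (95% interval -0.55 to 1.13, limma adjusted p = 0.619) and -0.21 without the number 3 libraries. For TXNRD1 it was -0.68 ± 0.43 SE (95% interval -1.70 to 0.35, limma adjusted p = 0.331) and -0.05 without them. The ratio of TXN to TXNRD1 was 4.77, 2.13 and 17.1 in TSN 1, 2 and 3, against 3.78, 3.37 and 1.78 in DMSO 1, 2 and 3. GENCODE lists 7 pseudogenes named after TXN, which can share its reads.

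SRXN1, sulfiredoxin, which restores over-oxidised peroxiredoxins (ENSG00000271303, chromosome 20, 646615 to 653370), had the lowest level in both groups. It had 0.620, 0.929 and 0.136 FPKM in TSN 1, 2 and 3, against 1.24, 1.24 and 2.02 FPKM in DMSO 1, 2 and 3. Every TSN library lay below every DMSO library, and the TSN mean was 37.4% of the DMSO mean. The log2 fold change was -0.70 ± 0.23 SE (95% interval -1.26 to -0.14, limma adjusted p = 0.0965; limma adjusted p 0.00127 to 0.295 over 16 alternatives), and -0.34 without the number 3 libraries. With a pseudocount of 0.01 in place of 1 it was -1.73 (limma adjusted p = 0.164). Without TSN 2 alone it passed the test (-0.87, limma adjusted p = 0.0442). The value in TSN 3 corresponds to about 14 fragments at the estimated depth. Exons of SRXN1 share 85% of their bases with AL121758.1 on the same strand, so its level is uncertain.

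Among the classical targets, NQO1, the quinone reductase (ENSG00000181019, chromosome 16, 69706996 to 69726951), had 14.9, 12.7 and 18.5 FPKM in TSN 1, 2 and 3, against 13.7, 13.3 and 11.7 FPKM in DMSO 1, 2 and 3. The groups overlapped because TSN 2 lay below DMSO 1 and 2. Its log2 fold change was 0.23 ± 0.17 SE (95% interval -0.19 to 0.64, limma adjusted p = 0.416) and 0.03 without the number 3 libraries. Exons of NQO1 share 17.7% of their bases with AC092115.2 on the other strand.

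HMOX1, the inducible heme oxygenase that cleaves heme into biliverdin, iron and carbon monoxide (ENSG00000100292, chromosome 22, 35380361 to 35394214), had 2.69, 3.37 and 4.59 FPKM in TSN 1, 2 and 3, against 1.77, 1.95 and 1.55 FPKM in DMSO 1, 2 and 3. Every TSN library lay above every DMSO library, and the TSN mean was 202% of the DMSO mean. The log2 fold change was 0.70 ± 0.18 SE (95% interval 0.26 to 1.14), and its limma adjusted p of 0.0502 missed the threshold narrowly. Over 16 alternatives the adjusted p ran from 0.00261 to 0.227, and 6 of them passed. Among the 6 fits with 1 library left out, HMOX1 passed without TSN 3 (0.54, limma adjusted p = 0.0356) and in no other. Without both number 3 libraries it was 0.49 (limma adjusted p = 0.0549).

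**Figure D2:**
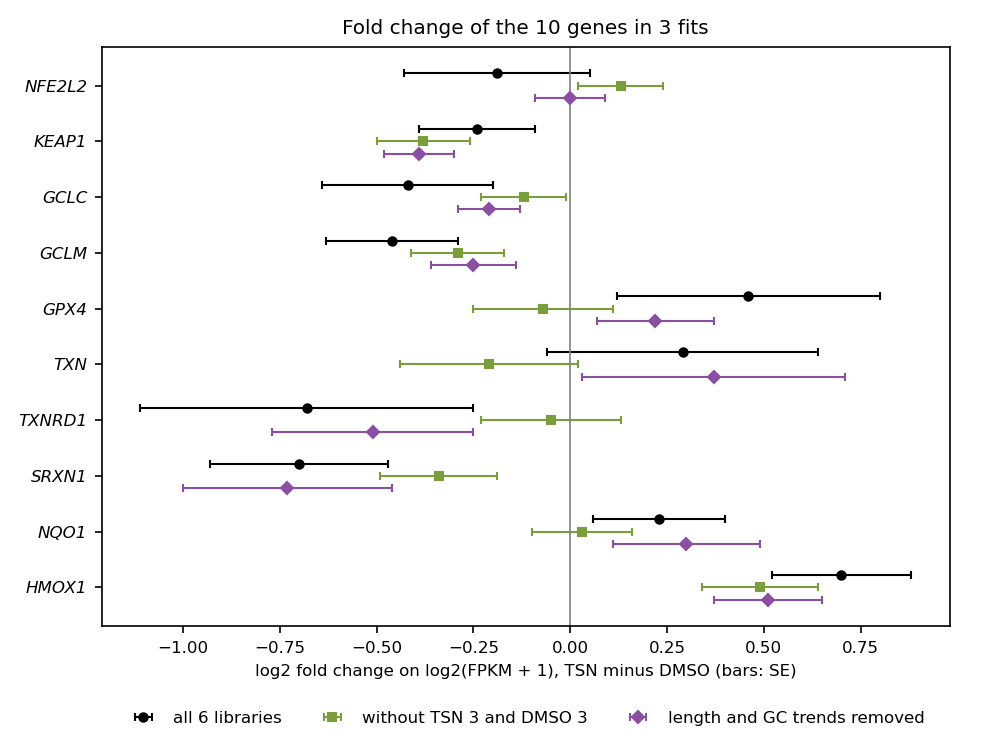
Log2 fold change of TSN minus DMSO on log2(FPKM + 1) for each of the 10 genes, with bars of 1 SE, in the fit of all 6 libraries, without TSN 3 and DMSO 3, and with trends with exon length and GC content removed. HMOX1 keeps a positive value (0.70, 0.49 and 0.51), whereas TXNRD1 is near 0 without the number 3 libraries (-0.05), and NFE2L2, TXN and GPX4 change sign there.

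TSN 3 was the highest or the lowest of the 6 libraries for 9 of 10 members, beside 72.6% of all tested genes. For 8 of 10 members TSN 3 and DMSO 3 sat at opposite ends, beside 40.1% of all tested genes. TSN 3 was highest for TXN, GPX4, HMOX1 and NQO1, whose merged exons measure 1142 to 3254 bp. It was lowest for SRXN1, GCLM, NFE2L2, TXNRD1 and GCLC, whose merged exons measure 2698 to 8646 bp. The difference between TSN 3 and the mean of TSN 1 and 2 ran from 1.01 for GPX4 to -1.44 for TXNRD1 on the log2 scale. In DMSO 3, set against DMSO 1 and 2 in the same way, it ran from -0.57 for GPX4 to 0.44 for TXNRD1. After removal of the trends with exon length and GC content, TXNRD1 stood at -0.51, GPX4 at 0.22 and NFE2L2 at -0.00, and limma called KEAP1 lower and HMOX1 higher (0.51, adjusted p = 0.0412), 2 of 10 beside 30.3% of all genes tested in that fit.

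**Figure D3:**
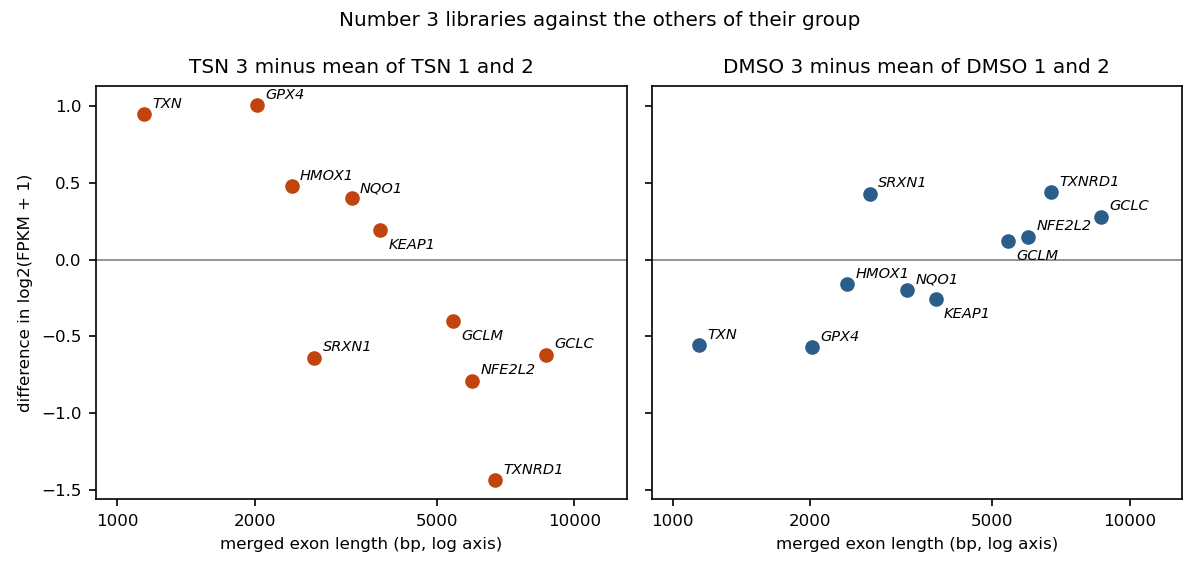
Difference in log2(FPKM + 1) between library 3 and the mean of libraries 1 and 2 of the same group, for the 10 genes, against merged exon length (bp, log axis), in TSN and in DMSO. The short genes TXN and GPX4 are high in TSN 3 (0.95 and 1.01) and low in DMSO 3 (-0.56 and -0.57), and the longer TXNRD1 shows the opposite signs (-1.44 and 0.44). Length does not order every gene: SRXN1, with 2698 bp, has -0.64 and 0.43, and KEAP1, with 3761 bp, has 0.19 and -0.26.

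By level in TSN, TXN stood first (346 ± 149 FPKM, SD, n = 3), followed by GPX4 (157 ± 70.5), KEAP1 (122 ± 10.9), TXNRD1 (65.2 ± 34.1), NFE2L2 (24.6 ± 7.40), NQO1 (15.4 ± 2.89), GCLC (10.7 ± 2.71), GCLM (4.02 ± 0.794), HMOX1 (3.55 ± 0.963) and SRXN1 (0.562 ± 0.400). In that order the ranges of TXN and GPX4, GPX4 and KEAP1, TXNRD1 and NFE2L2, NFE2L2 and NQO1, and GCLM and HMOX1 overlapped. In DMSO, KEAP1 (144 ± 15.3) stood above GPX4 (109 ± 23.7) and GCLC (14.4 ± 1.76) above NQO1 (12.9 ± 1.08), with TXN (270 ± 58.5) first again. The ranges of GPX4 and TXNRD1 (94.9 ± 17.7), GCLC and NQO1, and HMOX1 (1.76 ± 0.199) and SRXN1 (1.501 ± 0.452) overlapped there.

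The surrounding pathway was read from 9 lists that hold none of the members. Their median log2 fold changes stand beside that of all tested genes, -0.10, which was -0.00 without the number 3 libraries. Of 106 genes tested in them, each counted once, limma called 11 higher and 8 lower (10.4% and 7.55%), beside 7.71% and 7.2% of all tested genes. The lists were chosen with earlier results of these data known, so a share above that of all genes is no independent support. With 1 library left out, 4 to 22 were called higher and 2 to 12 lower, the fewest higher without DMSO 2 and the most without TSN 3. For the higher calls the count was 6 without TSN 1, DMSO 1 or DMSO 3, and for the lower calls it was 2 without TSN 1, DMSO 1, DMSO 2 or DMSO 3. MAFF, SLC7A11, ALAS1 and DHODH kept their call in all 6 such fits. BLVRA and GCH1 did too, but they had reached the filter on low values through their TSN libraries, where they are high, so their calls are no independent support. With no filter the limma adjusted p was 0.0283 for BLVRA and 0.0216 for GCH1.

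NRF2 works with small MAF proteins, and 1 of them moved. Of 14 tested partners and controllers, 1 rose and 0 fell (7.14% and 0%), beside 7.71% and 7.2% of all tested genes. The median log2 fold change was -0.39, and -0.04 without the number 3 libraries. MAFF, a stress-inducible small MAF (chromosome 22, 38200767 to 38216511), had 7.41, 6.70 and 6.23 FPKM in TSN 1, 2 and 3, against 1.97, 1.88 and 1.91 FPKM in DMSO 1, 2 and 3. The 3 TSN libraries lay far above the 3 DMSO libraries with no overlap, and the log2 fold change was 1.41 ± 0.13 SE (limma adjusted p = 0.0027). The related small MAF genes MAFG (-0.31, limma adjusted p = 0.241) and MAFK (-0.52, limma adjusted p = 0.255), named after their values were seen, were not called.

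Cystine supply and glutathione turnover held the largest fall of these lists. Of 14 genes tested, 1 rose and 3 fell (7.14% and 21.4%), beside 7.71% and 7.2% of all tested genes. The median was 0.18, and 0.03 without the number 3 libraries. SLC7A11, the cystine importer that feeds glutathione synthesis (chromosome 4, 138164097 to 138242349), had 2.90, 3.08 and 1.52 FPKM in TSN 1, 2 and 3, against 9.72, 9.39 and 12.2 FPKM in DMSO 1, 2 and 3. Its log2 fold change was -1.73 ± 0.23 SE (limma adjusted p = 0.00706), and -1.40 without the number 3 libraries. SLC3A2, its partner chain, also named after its value was seen, was not called (-0.47, limma adjusted p = 0.165). CHAC1, which degrades glutathione, averaged 1.87 ± 0.454 FPKM in TSN and 4.33 ± 0.476 in DMSO (SD, n = 3) and fell by 0.90 on the log2 scale (limma adjusted p = 0.0181). Its relative CHAC2, named after its value was seen, also fell (-0.65, limma adjusted p = 0.0388). GGT7, a member of the gamma-glutamyltransferase family, rose to 6.06 ± 1.03 FPKM in TSN, against 1.74 ± 0.351 in DMSO (1.36 ± 0.17 SE, limma adjusted p = 0.00615). CHAC1 lost its call without TSN 1, DMSO 1, DMSO 2 or DMSO 3 (limma adjusted p up to 0.0994), CHAC2 without any library but TSN 3 (up to 0.178), and GGT7 without DMSO 2 (0.0509). Exons of SLC7A11 share 8.97% of their bases with its antisense gene.

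Enzymes that spend glutathione or thioredoxin were mostly not called. Of 18 glutathione-using enzymes, 1 rose and 0 fell (5.56% and 0%), beside 7.71% and 7.2% of all tested genes. Their median was 0.10, and -0.03 without the number 3 libraries. The gene that rose was MGST1, a membrane glutathione transferase. MGST1 averaged 36.2 ± 2.93 FPKM in TSN and 23.1 ± 1.79 in DMSO (0.62 ± 0.13 SE, limma adjusted p = 0.0268). Of 18 thioredoxins, peroxiredoxins and methionine sulfoxide reductases, 0 rose and 1 fell (0% and 5.56%), beside the same shares of all tested genes. Their median was 0.15, and -0.07 without the number 3 libraries. The gene that fell was TXNIP, which binds and inhibits thioredoxin. TXNIP averaged 120 ± 19.8 FPKM in TSN and 199 ± 5.93 in DMSO (-0.73 ± 0.16 SE, limma adjusted p = 0.0305). MGST1 and TXNIP lost their calls without TSN 1, DMSO 1, DMSO 2 or DMSO 3, with limma adjusted p up to 0.126 and 0.136. Of 5 genes that remove superoxide and peroxide, limma called 0, and 0 had an unadjusted p under 0.05. The shares of all tested genes were 14.9% and 30.8%. The median of the 5 genes was 0.09, and -0.20 without the number 3 libraries. The most abundant of these were PARK7, an oxidation-sensitive chaperone, with 221 ± 42.9 FPKM in TSN and 266 ± 31.4 in DMSO, and the superoxide dismutase SOD1, with 90.3 ± 25.3 FPKM in TSN and 82.9 ± 9.71 in DMSO.

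Among 15 other NRF2 targets tested, 3 rose and 0 fell (20% and 0%), beside 7.71% and 7.2% of all tested genes. The median was 0.33, and 0.12 without the number 3 libraries. ME1, the cytosolic malic enzyme that makes NADPH (chromosome 6, 83210389 to 83431071), had 34.5, 35.4 and 24.2 FPKM in TSN 1, 2 and 3, against 10.97, 11.8 and 11.7 FPKM in DMSO 1, 2 and 3 (1.36 ± 0.18 SE, limma adjusted p = 0.00638). PGD, which makes NADPH in the pentose phosphate pathway, had 262, 245 and 260 FPKM in TSN 1, 2 and 3, against 150, 159 and 136 FPKM in DMSO 1, 2 and 3 (0.78 ± 0.13 SE, limma adjusted p = 0.0139). TALDO1 (-0.04, limma adjusted p = 0.939) and TKT (-0.11, limma adjusted p = 0.668), of the pentose phosphate pathway, and IDH1 (0.66, limma adjusted p = 0.108), which makes NADPH, were not called and were named after their values were seen. ME1 lost its call without DMSO 2 (limma adjusted p = 0.0512), and PGD without TSN 1, DMSO 1, DMSO 2 or DMSO 3 (limma adjusted p up to 0.0873).

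Of 10 genes of heme breakdown and supply, 3 rose and 0 fell (30% and 0%), beside 7.71% and 7.2% of all tested genes. The median was 0.58, and 0.40 without the number 3 libraries. ALAS1, which starts heme synthesis (chromosome 3, 52198086 to 52214327), had 150.4, 159 and 122.7 FPKM in TSN 1, 2 and 3, against 49.7, 50.6 and 51.9 FPKM in DMSO 1, 2 and 3 (1.48 ± 0.14 SE, limma adjusted p = 0.00303). BLVRA, which reduces the biliverdin made by HMOX1 to bilirubin (chromosome 7, 43758680 to 43807342), had 3.30, 2.45 and 4.65 FPKM in TSN 1, 2 and 3, against 0.388, 0.579 and 0.510 FPKM in DMSO 1, 2 and 3 (1.55 ± 0.20 SE, limma adjusted p = 0.00626). POR, which passes electrons to heme oxygenase, also rose and was named after its value was seen (0.65, limma adjusted p = 0.0318, up to 0.135 and not called without TSN 1, DMSO 1, DMSO 2 or DMSO 3). The groups did not overlap for ALAS1 and BLVRA, and each BLVRA value in DMSO was under 1 FPKM, so BLVRA entered the test through its TSN libraries alone.

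GPX4 and TXNRD1 need selenocysteine. Among 8 tested genes of selenoprotein synthesis, 0 rose and 2 fell (0% and 25%), beside 7.71% and 7.2% of all tested genes. The median was -0.47, and -0.45 without the number 3 libraries. A bearing of these genes on GPX4 and TXNRD1 was not tested. SEPHS1, a selenophosphate synthetase family member, averaged 19.0 ± 1.08 FPKM in TSN and 28.4 ± 1.12 in DMSO (-0.56 ± 0.12 SE, limma adjusted p = 0.0282). SECISBP2, which reads the selenocysteine signal in the message, averaged 9.82 ± 3.19 FPKM in TSN and 19.5 ± 1.93 in DMSO (-0.96 ± 0.24 SE, limma adjusted p = 0.043). Both lost their calls without TSN 1, DMSO 1, DMSO 2 or DMSO 3, with limma adjusted p up to 0.141 and 0.152. The related SEPHS2, named after its value was seen, was lower in every TSN library but not called (-0.50, limma adjusted p = 0.0583).

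Genes of lipid peroxidation and ferroptosis, the iron-dependent death that GPX4 restrains, moved both ways, with 3 of 11 higher and 3 lower. That is 27.3% each, beside 7.71% and 7.2% of all tested genes. The median was -0.13, and 0.50 without the number 3 libraries. GCH1, which starts synthesis of the lipid antioxidant tetrahydrobiopterin, had 6.49, 6.58 and 3.97 FPKM in TSN 1, 2 and 3, against 1.05, 0.840 and 0.895 FPKM in DMSO 1, 2 and 3 (1.77 ± 0.20 SE, limma adjusted p = 0.00451). It too would have missed the filter without its TSN values. TFRC, the transferrin receptor for iron uptake, averaged 93.4 ± 39.9 FPKM in TSN and 26.3 ± 5.75 in DMSO (1.71 ± 0.35 SE, limma adjusted p = 0.0249). POR, given above, also rose. DHODH, a mitochondrial enzyme that reduces ubiquinone, had 3.58, 3.65 and 3.94 FPKM in TSN 1, 2 and 3, against 10.5, 10.7 and 10.2 FPKM in DMSO 1, 2 and 3 (-1.28 ± 0.13 SE, limma adjusted p = 0.00346). SLC7A11 and VKORC1L1, a vitamin K reductase named after its value was seen (-0.73, limma adjusted p = 0.0357), were the others that fell. TFRC and VKORC1L1 lost their calls without TSN 1, DMSO 1, DMSO 2 or DMSO 3, with limma adjusted p up to 0.111 and 0.135.

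**Figure D4:**
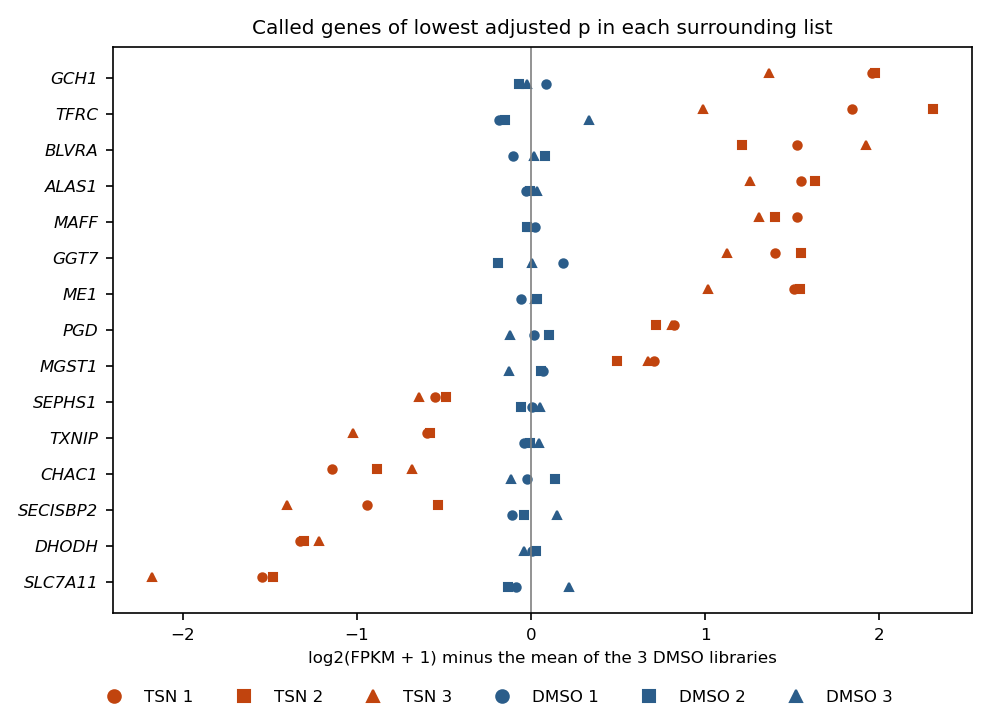
Level in every library of the called list genes of lowest adjusted p (up to 2 higher and 2 lower per list) as log2(FPKM + 1) minus the mean of the 3 DMSO libraries, TSN above DMSO in each row, ordered by fold change. SLC7A11 (-1.73) and GCH1 (1.77) stand at the ends. The groups do not overlap for the plotted genes, but these were picked by their calls, so the lack of overlap is no independent support.

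Genes of most similar profile were sought for 3 members, by the root-mean-square difference of log2(FPKM + 1) over the 6 libraries after each gene's own mean was subtracted. Nearest to NFE2L2 were DNAJB11 (0.017), TAF6 (0.024) and C3orf38 (0.031), and nearest to TXNRD1 were WDR82 (0.049), M6PR (0.054) and CEPT1 (0.061). HMOX1 had no neighbour as close, with PRAM1 (0.111), CLDN15 (0.115) and CCDC88B (0.120) first. For scale, the deviation of the genes themselves from their own means was 0.29 for NFE2L2, 0.62 for TXNRD1 and 0.40 for HMOX1. These are descriptions of 6 libraries that share the library differences given above.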

How the data were processed

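RNA-seq was run on 6 libraries, 3 TSN and 3 DMSO. The authors deposited 1 table of 30741 genes whose values are FPKM. The unit was read from the values: low values of single-exon genes, multiplied by exon length and divided by the worth of 1 fragment, came out whole within 0.1 in 95.4% to 97% of cases, which also gave the depth estimate. Per the submitters' processing notes, the authors used GRCh38 and DESeq2 1.26.0. The sources used here do not give the aligner, counting tool, strand use or annotation. Gene places and exon lengths came from GENCODE 29 (93.7% of genes found).

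FPKM are not counts, so limma 3.58.1 in R 4.3.3 was fitted on log2(FPKM + 1), with variance trend and robust moderation, to 11440 genes. Benjamini-Hochberg adjustment ran over all of them with a threshold of 0.05. The fit was run on simulated data with noise drawn independently for each gene and library. Such data lack the trends with exon length and GC content, so they cannot show how the calls hold under them. Being scaled to library totals, FPKM cannot show a change in RNA content per cell. Named genes were the members, then up to 2 higher and 2 lower called genes of lowest adjusted p per list or, with none called, the 2 most abundant, and the 3 nearest profiles of NFE2L2, HMOX1 and TXNRD1. Members and lists were chosen with earlier results of these data known. Alternatives covered pseudocounts, filters, scaling, moderation, library weights, left-out libraries and a replicate block. Tables were handled with pandas 2.3.3 in Python 3.11.15 and figures drawn with matplotlib 3.10.9. Of 135 list genes, 129 were in the table, and the other 6 were not analysed here. Values of 1 called list gene are not reported here.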

Additional observations from a re-analysis of the deposited data

How the results depend on the processing

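Of 167 values of the 10 members under the alternatives, 147 kept their direction and their side of the threshold, 14 passed it newly and 6 turned direction. NFE2L2 turned to 0.08 without TSN 3, 0.13 without both number 3 libraries and 0.04 with library weights, TXN to -0.03 without TSN 3 and -0.21 without both, and GPX4 to -0.07 without both. With 1 library left out, NFE2L2 ranged from -0.35 to 0.08, TXN from -0.03 to 0.61 and SOD1 from -0.11 to 0.28. SOD1 turned to -0.00 with quantile normalization, -0.04 with library weights, -0.11 without TSN 3, -0.00 without DMSO 3 and -0.21 without both.

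One member was called higher (HMOX1, 1 in each fit) with pseudocounts of 0.1 and 0.01, plain moderation, library weights and removal of length and GC trends. Lower calls numbered 1 with quantile normalization (SRXN1), 1 with length and GC trends removed (KEAP1) and 5 with library weights. With 1 library left out, members called ranged from 0 to 1 in each direction. Calls over the whole table (1706 with all libraries) ranged from 259 without DMSO 2 to 2823 without TSN 3, with 326 without DMSO 1, 369 without TSN 1 and 450 without DMSO 3. With 1 library left out, higher list genes ranged from 4 to 22 and lower ones from 2 to 12. Unfiltered, the whole table had 777 calls, and it had 1002 when a mean of 5 FPKM was required, 3299 without both number 3 libraries, 3403 with length and GC trends removed and 7079 with library weights. Higher list genes then numbered 7, 7, 21, 20 and 39, and 17 with quantile normalization. Lower list genes numbered 2 with no filter, 16 without both number 3 libraries, 14 with trends removed and 34 with library weights. The weights were 7.67 for TSN 1 and 0.097 for TSN 3. The cause of these changes was not tested. With no filter 67.3% of calls were higher, against 51.7% in the main test. The median over all genes, -0.10, became -0.00 when libraries were scaled by median log ratios.

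A fit with the replicate block gave 0 calls over the whole table and in the lists (2121 genes at an unadjusted p under 0.05). Libraries of the same number deviated in opposite directions (correlations -0.32, -0.65 and -0.83). The labels do not say whether they shared a culture or day, and these correlations cannot show it. The count-based tests foreseen were left out, as FPKM are not counts. HMOX1, GCLM and SRXN1 average under 5 FPKM in the libraries and, with that minimum, have no value there. Depth limits SRXN1 most, with about 14 to 203 fragments per library.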
